A study of Mus musculus with 8 samples.

Results

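The cytosolic ribosomal protein genes were followed through single-cell RNA sequencing of colonic myeloid cells from CD98hcΔCX3CR1 mice. The set was taken by name: every gene symbol that starts with Rpl or Rps and a number, together with Rplp0, Rplp1, Rplp2 and Rpsa. Of 112 rows with such a name, 9 Rps6k kinases, 16 rows named -ps (processed pseudogenes) and 3 genes with fewer than 100 UMIs (Rpl10l, Rpl39l and Rpl3l) were set aside. This left 84 of 16889 genes, of which 77 encode core ribosomal proteins (46 of the large subunit, 3 of them in the P-stalk, and 31 of the small subunit) and 7 do not. The 7 are the paralogs Rpl22l1, Rps27l, Rpl36al and Rpl7l1, the retrocopies Rpl6l and Rps27rt, and Rps19bp1, which encodes a nucleolar partner of Rps19 and shares only the name.

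All 8 mice were female littermates of 6 to 12 weeks that carried floxed CD98hc alleles (CD98hc flox/flox) and Cx3cr1CreER-YFP, a tamoxifen-dependent Cre driven by Cx3cr1. The 4 control mice (replicates 1 to 4) received corn oil and the 4 cKO mice (replicates 5 to 8) received 100 µl of tamoxifen at 20 mg/ml on 5 days, with cells taken on day 7. Only cells that express Cx3cr1 are targeted, and because control mice had the same alleles but no tamoxifen, effects of the drug and of the deletion cannot be told apart. Lamina propria cells were sorted on CD11b with CCR2 and CD64, and each mouse filled a well of its own with about 3000 cells loaded. A UMI (unique molecular identifier) tags an RNA molecule near its 3′ end, and values below are shares of all UMIs in percent, or counts per 1000000 UMIs (CPM).

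Ribosomal proteins assemble with ribosomal RNA into the small subunit, which reads the mRNA, and the large subunit, which joins the amino acids. Rplp0, Rplp1 and Rplp2 form the P-stalk, which recruits elongation factors to the large subunit. Their mRNAs are among the most abundant of most cells and typically start with a terminal oligopyrimidine (TOP) tract, a C followed by further C or T, through which translation of the whole family is tuned to growth signals and amino acid supply. CD98hc is the heavy chain shared by several amino acid transporters.

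The TOP tract is where these genes resemble each other outside their names, so start-site stretches are shown for the members on which the comparisons below turn. Of the 84 members, 63 were matched by symbol in the RefSeq promoters of GRCm38.p6. A run of at least 8 bases that begins with C and holds only C and T, read on the strand of the gene within 50 bases of the annotated start, was found in 51 of the 63 (81.0%), in 48 of 57 core members and in 31.99% of all 27025 genes of that table. Each stretch covers 10 bases before and 20 after the annotated start, on the strand of the gene, and capitals mark its longest run of C and T that begins with C.
Rpl14 (chr9:120571507-120571536, plus strand): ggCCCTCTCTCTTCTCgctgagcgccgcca
Rpl12 (chr2:32961702-32961731, plus strand): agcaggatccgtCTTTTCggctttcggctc
Rps9 (chr7:3704031-3704060, plus strand): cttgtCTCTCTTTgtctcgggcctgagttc
Rpl18 (chr7:45718061-45718090, plus strand): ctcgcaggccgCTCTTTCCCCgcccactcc
Rps4x (chrX:102189372-102189401, minus strand): gctgggcggagcaacccaggCTCCagcgcg
Rps27 (chr3:90213629-90213658, minus strand): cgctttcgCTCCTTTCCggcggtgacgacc
Rps27rt (chr9:114982720-114982749, minus strand): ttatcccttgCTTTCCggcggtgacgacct
Rps4x and Rpl14 were the members that passed the test between conditions, Rpl14 and Rpl12 had the largest differences between dendritic cell-like and monocyte-like cells, and Rps9 was the member lower in both other cell types than in monocyte-like cells. Rps27 and its retrocopy Rps27rt show why some values stay uncertain: their transcripts were identical over 341 bases. The authors' alignment reported a single position for a read that fits several, so counts of such a pair, and of Rpl6 and Rpl6l (98.7% identity), can be split between the copies in ways the values do not show. The -ps rows held 187397 UMIs, 6.99% of the number in the members. Copies of Rpl9, Rpl10, Rpl13, Rpl13a, Rps12, Rps18, Rpl23a, Rpl27, Rps26 and Rpl36 were among them, so these parents are uncertain too.

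After filtering, 3213 cells were kept, with 85 to 724 cells per control mouse and 83 to 484 per cKO mouse, and 497531 to 3762314 UMIs per mouse. Control replicate 3 and cKO replicate 5, with 85 and 83 cells, had the fewest cells and UMIs, and control replicate 4 had low values of some members. Of the 84 members, 16 were at their lowest in control replicate 4, among them Rps29 at 0.259, Rps28 at 0.266, Rpl38 at 0.315 and Rps27rt at 0.367 of the mean of the other control mice. The same 16 were below the other control mice in each of the 7 clusters of cells that gave sums for that mouse, with median ratios between 0.486 and 0.620. These clusters are parts of the library whose sum picked the 16, so they are no separate check. Their shortest coding transcripts had a median of 415.5 bases (271 to 962), against 525 bases (250 to 3706) for 67 of the other 68 members, so the lengths overlapped, and their part in the difference was not tested. In other mice, 62 members were highest in control replicate 3, 51 were lowest in cKO replicate 7 and 15 were lowest in cKO replicate 5. The share of all genes at their highest or lowest in these mice was not counted, so none of these counts is a trait of the members. Slc3a2, which encodes CD98hc, was read at 358.0, 264.2, 232.5 and 493.1 CPM in control replicates 1 to 4 and at 291.4, 357.3, 323.0 and 309.3 CPM in cKO replicates 5 to 8, so the groups overlapped and this 3′ count does not check the labels.

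The members together held 15.3% of all UMIs kept. A 3′ UMI counts a molecule whatever its length, so levels of different genes are given side by side in CPM. Copies share reads, and 16 members, Rpl41 included, lay at 0.259 to 0.685 of the other control mice in control replicate 4. The order of levels holds only within these limits. Rpl41, which encodes the smallest ribosomal protein, gave the highest level of a single gene row with 4401 ± 912 CPM (mean ± SD over 8 mice). It was followed in total UMIs by Rps14, Rps27, Rpl13, Rps19 and the stalk protein Rplp0, at means of 3615, 3737, 3448, 3476 and 3224 CPM. Rps27 and its copy Rps27rt were counted apart in this order. Core members spanned 8.04-fold in mean level, down to Rpl12 with 547 ± 160 CPM and Rpl5 with 592 ± 113 CPM, although their proteins are present in a single copy per ribosome outside the stalk. The 3 lowest of all members were non-core: Rps19bp1 with 33.1 ± 7.87 CPM, Rpl7l1 with 78.3 ± 11.7 CPM and Rps27l with 386 ± 50.8 CPM. The paralog Rpl22l1, with 592 ± 82.8 CPM, lay level with Rpl5 and above Rpl12.

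Between mice, core members varied with coefficients of variation between 4.75% (Rpl24) and 47.3% (Rps28), with a median of 16.1%. The widest were Rps28, Rps29 (46.1%) and Rpl38 (43.6%), which belong to the 16 that were low in control replicate 4. Rps29 was at 3122, 3620, 5822 and 1085 CPM in control replicates 1 to 4 and at 5268, 2861, 2151 and 2977 CPM in cKO replicates 5 to 8. It was highest in the mice of 85 and 83 cells and lowest in control replicate 4, with the groups overlapping. The balance of the subunits barely moved by comparison: the small subunit held between 43.1% and 43.8% of core UMIs in every mouse, with a cKO minus control difference of -0.204 points (two-sided exact permutation test over mice, p = 0.314, n = 4 against 4).

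**Figure D1:**
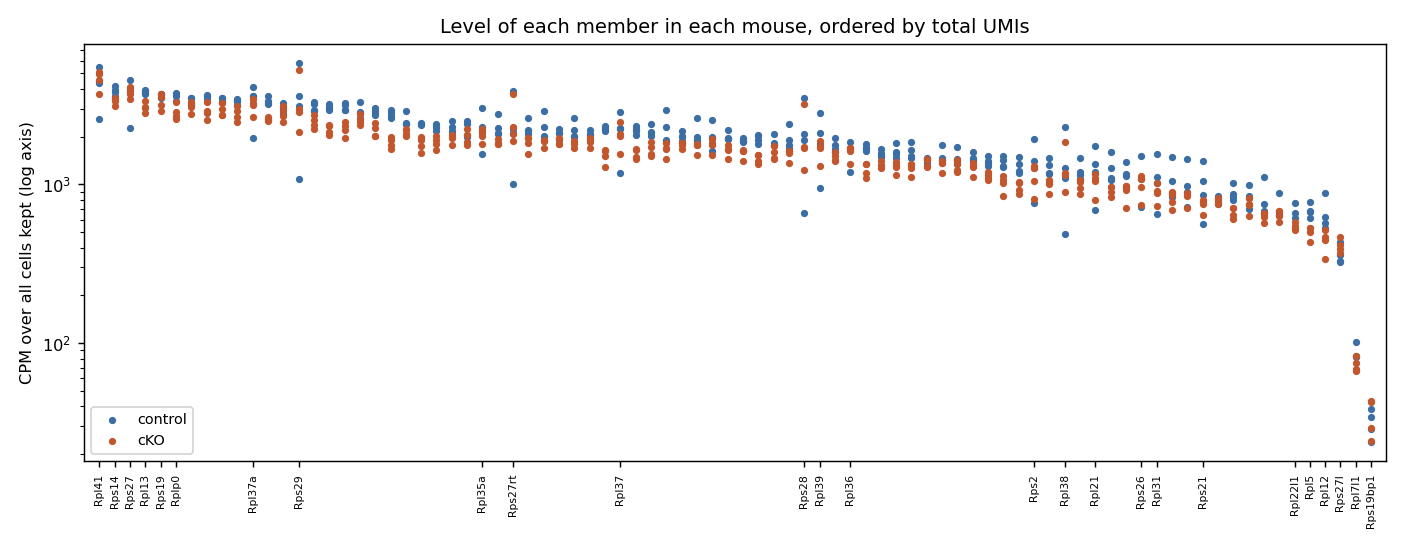
Level of each of the 84 members (CPM over all cells kept, log axis) in each mouse, ordered by total UMIs, with control mice in blue and cKO mice in orange. Names mark the 6 highest, the 6 lowest and the 16 members that were lowest in control replicate 4. Most members lie within a narrow band, and Rps29, Rps28 and Rpl38 show the widest spread, with control replicate 4 as the lowest point (Rps29 at 1085 CPM).

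The first comparison asked whether the whole family took another share of the transcriptome after tamoxifen. The members held 16.2%, 16.9%, 19.3% and 14.8% of UMIs in control replicates 1 to 4 and 14.6%, 15.0%, 12.6% and 14.4% in cKO replicates 5 to 8. Control replicate 4 lay below cKO replicate 6, so the groups overlapped, and the other control mice lay above every cKO mouse. The means were 16.8% ± 1.86 and 14.2% ± 1.07 (SD, n = 4 each), a difference of -2.61 points that missed the threshold (two-sided exact permutation test, p = 0.0571). Without control replicate 4 the difference was -3.27 points (exact permutation test, p = 0.0286, the smallest for 3 against 4 mice). Leaving out the only overlapping control mouse separates the groups by construction, so this p carries no test. Without the mice of 85 and 83 cells the difference was -1.94 points (exact permutation test, p = 0.200). With the monocyte-like, macrophage-like and unnamed clusters described below alone, it was -1.48 points (exact permutation test, p = 0.171). Mitochondrial transcripts took 1.63% to 1.78% of UMIs in control mice and 1.44% to 1.65% in cKO mice, and their part in the difference was not tested. In sums over all cells, fewer cells of a type and less RNA per cell cannot be told apart.

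**Figure D2:**
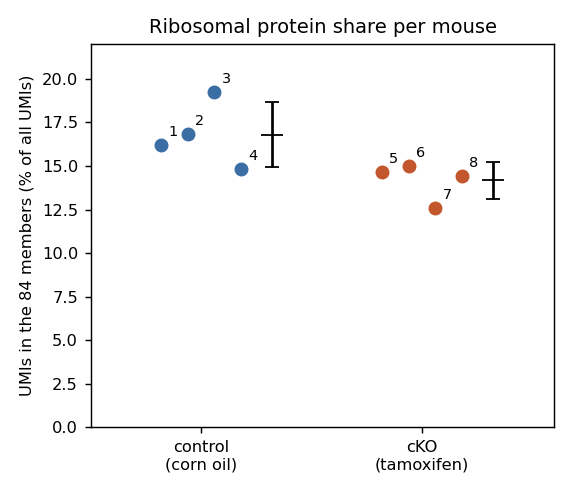
Share of all UMIs in the 84 members per mouse (percent), with the replicate number beside each point and the mean ± SD of each group as a bar with caps. Control replicates 1 to 3 lie above all cKO mice, and control replicate 4, at 14.8%, lies within the cKO range of 12.6% to 15.0%.

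The 16 members that were low in control replicate 4 and the other 68 are given apart. The 16 held 3.35%, 3.55%, 4.84% and 1.83% of UMIs in control replicates 1 to 4, against 3.99%, 3.25%, 2.57% and 3.22% in cKO replicates 5 to 8. The other 68 held 12.9%, 13.3%, 14.4% and 12.98% in control mice, against 10.7%, 11.8%, 10.0% and 11.2% in cKO mice. For the 68 every cKO mouse thus lay below every control mouse. This division was made after the values were seen. It took out the members with control replicate 4 below every other mouse, cKO mice included. That favors a separation of the other 68 by construction, so the division carries no test.

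Gene by gene, 46 of the 84 members had every cKO mouse below every control mouse in CPM, against 8.34% of the 11387 genes tested, and 0 members had every cKO mouse above, against 4.0% of genes. With TMM-scaled library sizes, which set the bulk of genes level, the count was 21 members (6.11% of genes) below and 0 (5.85%) above. The test of edgeR on sums per mouse, adjusted by Benjamini-Hochberg over all genes, called 4.48% of genes, 2.99% higher and 1.48% lower in cKO mice. Of the members it called 2 lower and 0 higher. At an unadjusted p under 0.05 it held 16 members, against 20.6% of all genes. The median log2 fold change was -0.19 over the members and -0.03 over all genes, and 71 of the 84 members were below 0.

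Both called members separated the groups without overlap. Rps4x, the X-linked gene of a core small subunit protein, was at 2605, 2803, 2959 and 2688 CPM in control replicates 1 to 4 and at 1777, 1991, 1668 and 1892 CPM in cKO replicates 5 to 8. Its log2 fold change was -0.50 (SE 0.12, edgeR quasi-likelihood, adjusted p = 0.0404). Over 13 alternatives its edgeR or DESeq2 adjusted p lay between 0.000874 and 0.134, and 3 kept the call. Rpl14, a large subunit protein, was at 2160, 2280, 2230 and 2341 CPM in control mice and at 1516, 1645, 1289 and 1635 CPM in cKO mice. It fell by 0.47 on the log2 scale (SE 0.12, edgeR quasi-likelihood, adjusted p = 0.0498). Its edgeR or DESeq2 adjusted p lay between 0.00146 and 0.157 over 13 alternatives, of which 1, DESeq2, kept the call. Leaving out any mouse other than control replicate 4 ended the call of Rps4x, and leaving out any single mouse ended that of Rpl14, while their log2 fold changes stayed between -0.42 and -0.54. For both genes every cKO mouse lay below every control mouse, control replicate 4 included.

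The P-stalk genes did not pass the test. Rplp0 was at 3628, 3664, 3352 and 3743 CPM in control mice and at 2579, 3283, 2679 and 2867 CPM in cKO mice (log2 fold change -0.24, edgeR adjusted p = 0.308), without overlap of the groups. Rplp1 and Rplp2, the acidic stalk proteins, had log2 fold changes of -0.35 (edgeR adjusted p = 0.263) and -0.24 (edgeR adjusted p = 0.372).

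The non-core members lay on both sides of 0 with a median log2 fold change of 0.05, against -0.18 for the large subunit without the stalk and -0.22 for the small subunit. Rps27l, whose transcription is known to respond to p53, was at 329, 357, 323 and 433 CPM in control mice and 392, 415, 372 and 468 CPM in cKO mice, and the groups overlapped (log2 fold change 0.29, edgeR adjusted p = 0.275). Rpl36al (0.05), Rps19bp1 (0.27) and Rps27rt (0.19) also had positive log2 fold changes, and Rpl22l1 (-0.15), Rpl6l (-0.10) and Rpl7l1 (-0.10) negative ones, with edgeR adjusted p between 0.511 and 0.851.

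Genes around the ribosome were read from lists set out beside the members. Of 30 elongation factors, initiation factors and other TOP mRNAs, 2 passed the test in all cells, both lower in cKO mice: Eef1b2, an exchange factor of elongation factor 1, with a log2 fold change of -0.64 (SE 0.17, edgeR adjusted p = 0.0493), and Eif4b, a cofactor of the initiation helicase, with -0.63 (SE 0.15, edgeR adjusted p = 0.0376). None of 34 ribosome biogenesis genes passed, with 3 at an unadjusted p under 0.05, and none of 78 mitochondrial ribosomal proteins, with 4 at that level. The median log2 fold changes of these lists were -0.15, -0.14 and -0.01. The ribosome components Fau and Rack1 did not pass either.

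To look within cell types, the cells were grouped into 9 clusters with all ribosomal protein genes and the lists above left out, and a cluster was named only from at least 3 class markers among its 10 leading genes. The labels describe monocytes and macrophages, and 551 cells were monocyte-like (Chil3, Ly6c2 and Hp among the leading genes) and 499 macrophage-like (C1qa, C1qb, C1qc and Pf4). A further 284 macrophage-like cells had a median UMI count of 0.243 of their own mouse and are called low-UMI macrophage-like. The sort also held 497 dendritic cell-like cells (Cd209a, Xcr1, Itgae and Flt3), 183 lymphoid-like cells (Jchain, Mzb1, Cd79a and Cd3g) and 86 stromal-like cells (Dcn, Col3a1). Clusters led by Ccl24 and Mmp12 (484 cells), by Ccr2 and Ms4a8a (383 cells) and by Saa3 and Il1a (246 cells) were left without a name.

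Pooled over mice, the members took 18.7% of UMIs in dendritic cell-like cells, the highest share, and 11.04% in the Saa3 Il1a cluster, the lowest. Between these lay the lymphoid-like cells (16.2%), the low-UMI macrophage-like cells (16.2%), the Ccr2 Ms4a8a cluster (15.6%), the Ccl24 Mmp12 cluster (15.5%), the monocyte-like cells (13.9%), the stromal-like cells (13.5%) and the macrophage-like cells (12.9%). Mice contributed unequally to these pooled shares, and the order between the ends differed by group: in control mice the monocyte-like share was 16.1% (135 cells), above the lymphoid-like cells (15.5%) and the Ccl24 Mmp12 cluster (15.2%), and in cKO mice it was 13.2% (416 cells), below both (17.0% and 15.9%). Within mice, dendritic cell-like cells exceeded the other cells of the same mouse by 3.88 points ± 1.04 (SD, 7 of 7 mice, two-sided exact sign-flip permutation test, p = 0.0156, the smallest that 7 mice allow, adjusted p = 0.125 over 8 clusters). In macrophage-like cells the difference was -2.63 points ± 2.24 (SD, 0 of 6 mice above, exact sign-flip permutation test, p = 0.0312, adjusted p = 0.125). It was wider in control mice, where the other cells held 17.3%, 18.8% and 15.1% (replicates 1, 2 and 4). In cKO replicates 6, 7 and 8 the other cells held 15.1%, 12.7% and 14.5%. The makeup of the other cells differed by group, so these differences also carry that makeup. In the Saa3 Il1a cluster the difference was -3.52 points ± 0.712 (SD, 0 of 3 mice above, all cKO), where 0.25 is the smallest p of an exact permutation test. No cluster thus passed after adjustment. Dendritic cell-like cells also had the most UMIs, with a median of 1.84 of their own mouse. The low-UMI macrophage-like cells held a share 1.13 points above the other cells (5 of 6 mice, exact sign-flip permutation test, p = 0.0938). Pooled over mice, monocyte-like cells under 2000 UMIs held 15.5%, those from 2000 to under 5000 14.7% and those from 5000 to under 10000 13.4%. Low-UMI macrophage-like cells held 15.1% under 2000 UMIs and 17.9% from 2000 to under 5000. With more UMIs per cell the share also fell in the Ccl24 Mmp12 and Saa3 Il1a clusters and rose in macrophage-like and stromal-like cells. It moved both ways in dendritic cell-like cells, lymphoid-like cells and the Ccr2 Ms4a8a cluster. The part of depth in the share was not tested.

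**Figure D3:**
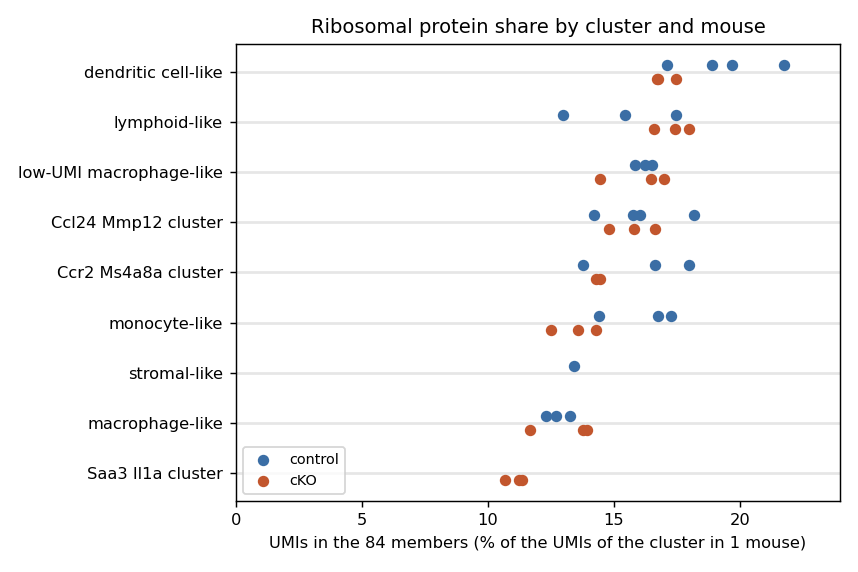
Share of UMIs in the 84 members (percent) in each cluster, with a point per mouse that had at least 20 cells of the cluster, control in blue and cKO in orange. Dendritic cell-like cells lie to the right, the Saa3 Il1a cluster to the left, and the groups separate without overlap in monocyte-like cells.

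The makeup of the groups differed along the same axis. Dendritic cell-like cells were 19.5% to 27.1% of the cells of control mice and 4.34% to 8.43% of those of cKO mice. The Saa3 Il1a cluster, with the lowest share, was at most 2.55% of cells in control mice, with 0 of 85 cells in control replicate 3, which allows a share of up to 3.53% (counting error only). In cKO mice it was 8.88% to 25.4%. Monocyte-like cells were 2.35% to 9.84% of cells in control mice and 15.7% to 40.7% in cKO mice. The pooled share of each cluster was also weighted by the part of the UMIs of each mouse that the cluster held. This gave 16.05% in control mice (15.7% to 16.3%) and 14.4% in cKO mice (13.6% to 14.9%), a difference of -1.61 points beside the -2.61 points measured. These weights are not the percentages of cells above, so they also carry differences in UMIs per cell. The pooled monocyte-like share comes mostly from cKO cells and the dendritic cell-like one mostly from control cells, so the -1.61 points also carry differences within clusters. With equal weight for each of the 5 clusters with at least 5 cells in every mouse (macrophage-like, low-UMI macrophage-like, dendritic cell-like, Ccl24 Mmp12 and Ccr2 Ms4a8a, and so without monocyte-like cells and the Saa3 Il1a cluster), the difference was -1.15 points (two-sided exact permutation test, p = 0.286, n = 4 against 4).

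Within clusters, the widest differences in share were those of monocyte-like and dendritic cell-like cells. No cluster passed the exact permutation test, but none could. The smallest p is 0.1 with 3 against 3 or 3 against 2 mice. With 4 against 3 it is 0.0286, which cannot pass after adjustment over 7 clusters. The test thus does not show whether the shares differ. In monocyte-like cells the share was 16.8%, 17.3% and 14.4% in control replicates 1, 2 and 4. It was 14.3%, 12.5% and 13.6% in cKO replicates 6, 7 and 8, without overlap. The difference was -2.68 points (two-sided exact permutation test, p = 0.1, the smallest for 3 against 3, adjusted p = 0.35 over 7 clusters). In dendritic cell-like cells it was 18.9%, 19.7%, 21.8% and 17.1% in control mice and 16.7%, 16.8% and 17.5% in cKO replicates 6, 7 and 8, a difference of -2.39 points (exact permutation test, p = 0.0857, adjusted p = 0.35). In the Ccr2 Ms4a8a cluster, with 3 control and 2 cKO mice, the difference was -1.77 points (exact permutation test, p = 0.4), with -0.845 points without control replicate 2 and -2.95 without control replicate 4.

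The other clusters showed smaller or opposite differences. Macrophage-like cells held 13.3%, 12.3% and 12.7% in control replicates 1, 2 and 4 and 13.95%, 11.7% and 13.8% in cKO replicates 6, 7 and 8, a difference of 0.384 points (exact permutation test, p = 0.7, n = 3 against 3). The Ccl24 Mmp12 cluster and the low-UMI macrophage-like cells differed by -0.302 and -0.221 points (exact permutation tests, p = 0.857 and 0.9). In lymphoid-like cells the share was 2.03 points higher in cKO mice (exact permutation test, p = 0.3, n = 3 against 3), with 0.876 points without control replicate 4 and 3.12 without control replicate 2. There, immunoglobulin genes took 12.04%, 8.64% and 17.6% of UMIs in control mice and 14.7%, 8.23% and 7.30% in cKO mice, and over the remaining UMIs the members held 17.6%, 19.1% and 15.8% in control mice and 19.5%, 19.0% and 19.4% in cKO mice. The part of the immunoglobulin genes in this difference was not tested. Whether the differences of the clusters differ from each other was not tested.

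By single genes, 50 members in monocyte-like cells had every cKO mouse below every control mouse in CPM (6.86% of 11361 genes) and 1 had every cKO mouse above (7.81%). With TMM scaling these counts were 30 (4.13% of genes) and 1 (11.4%). Among dendritic cell-like sums 39 lay below (4.75%) and 1 above (2.79%), or 52 (6.64%) and 0 (1.82%) with TMM scaling. In the Ccr2 Ms4a8a cluster 37 lay below (11.3%) and 1 above (11.1%). In lymphoid-like cells the direction was the opposite, with 1 below (5.49%) and 14 above (4.01%), or 0 (3.78%) and 29 (5.99%) with TMM scaling. Macrophage-like cells had 3 below (8.66%) and 1 above (6.26%), the low-UMI macrophage-like cells 7 (3.12%) and 3 (2.98%), and the Ccl24 Mmp12 cluster 4 (2.76%) and 3 (2.74%).

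No member passed the joint edgeR fit within any of the 7 clusters. That fit called 0.106% of genes in the Ccl24 Mmp12 cluster, 0.185% in the Ccr2 Ms4a8a cluster, 0.0352% in low-UMI macrophage-like and 0.044% in lymphoid-like cells, all of them higher in cKO mice. It called 0.158% in dendritic cell-like cells (0.141% higher and 0.0176% lower), 0.484% in macrophage-like cells (0.405% and 0.0792%) and 0.555% in monocyte-like cells (0.458% and 0.0968%). At an unadjusted p under 0.05 it held 41 members in dendritic cell-like cells (6.17% of genes), 20 in the Ccr2 Ms4a8a cluster (6.08%) and 19 in lymphoid-like cells (6.65%). It held 3 in low-UMI macrophage-like (4.71%), 2 in macrophage-like (7.98%), 2 in monocyte-like cells (8.12%) and 1 in the Ccl24 Mmp12 cluster (6.2%). With DESeq2, 19 members were called lower in monocyte-like cells (0.422% of genes), 11 in the Ccr2 Ms4a8a cluster (0.158%), 4 in dendritic cell-like (0.0704%) and 1 in macrophage-like cells (0.0792%), and 1 higher in the Ccl24 Mmp12 cluster (0.158%). The median of all genes in monocyte-like cells was 0.11 on the log2 scale with edgeR and -0.01 with DESeq2, and that of the members -0.11 and -0.26, so the members lay below the bulk of genes by a like amount with both tools.

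Rps4x, called in all cells, was followed through the cell types. In monocyte-like cells it was at 2318, 2741 and 2608 CPM in control replicates 1, 2 and 4 and at 1838, 1666 and 1691 CPM in cKO replicates 6, 7 and 8. In macrophage-like cells it was at 2146, 1982 and 2261 CPM and at 1730, 1619 and 1746 CPM. Dendritic cell-like cells gave 3177, 3387, 3527 and 3378 CPM in control mice and 2619, 2730 and 2850 CPM in cKO mice. The groups did not overlap in any of these 3 cell types. These sums are parts of the cells in which Rps4x was called, so they are no separate evidence. Its log2 fold changes were -0.40 in monocyte-like cells (edgeR adjusted p = 0.425), -0.37 in macrophage-like cells (edgeR adjusted p = 0.488), -0.43 in dendritic cell-like cells (edgeR adjusted p = 0.549) and -0.63 in the Ccr2 Ms4a8a cluster (edgeR adjusted p = 0.213).

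Among the other members of smallest p, Rpl12, which sits at the base of the stalk, had the smallest p in dendritic cell-like cells. It was at 690, 800, 1086 and 744 CPM in control mice and at 497, 541 and 669 CPM in cKO replicates 6, 7 and 8, without overlap (log2 fold change -0.65, SE 0.18, edgeR adjusted p = 0.212). Rps25 (-0.50) and Rps27a (-0.49), which is made as a fusion with ubiquitin, followed it there. In the Ccr2 Ms4a8a cluster Rpl10 (-0.62) and Rps9 (-0.61) stood beside Rps4x, and in monocyte-like cells Rps7 (-0.33). In macrophage-like cells Rpl22l1 (-0.46) and Rpl10 (-0.27) were next to Rps4x. In lymphoid-like cells the leading members were positive, with Rps19 at 0.48, Rpl35 at 0.45 and Rpl26 at 0.42. Rps27l led in the Ccl24 Mmp12 cluster (0.80, SE 0.21, edgeR adjusted p = 0.133) and in low-UMI macrophage-like cells (0.77), ahead of Rpl8 (-0.29) and Rps4x (-0.25) in the former and of Rpl29 (0.47) and Rplp2 (-0.34) in the latter. None of these values passed the edgeR threshold, with adjusted p between 0.133 and 0.846.

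The next comparisons asked how the members differ between cell types of the same mice, with the mouse as a block in edgeR. Since the clusters were formed from the other genes, the share of all genes called is high by construction, and it is the members and the lists that the clustering did not see. Across clusters, 47 of the 77 core members had their highest mean CPM in dendritic cell-like cells, 6 in lymphoid-like cells, and 61 their lowest in the Saa3 Il1a cluster. The ratio of the highest to the lowest cluster lay between 1.36 and 2.85 for core members with a median of 1.79. The widest core members were Rpsa, the laminin receptor homolog of the small subunit (2.85), and Rpl14 (2.74). The paralog Rpl36al exceeded both, from 1315 CPM in lymphoid-like to 443 CPM in stromal-like cells (2.97, the latter from a single mouse). The small subunit held between 41.8% (lymphoid-like) and 44.3% (Saa3 Il1a cluster) of core UMIs.

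Between dendritic cell-like and monocyte-like cells, 41 members were higher and 1 lower in the dendritic cell-like cells, against 16.5% and 15.5% of 11361 genes, or 32.1% in both directions. The 41 were 22 genes of the large subunit outside the stalk, Rplp1, 17 of the small subunit and Rps27l. The median log2 fold change was 0.27 over the members and 0.08 over all genes. DESeq2 called 53 higher and 3 lower, against 13.3% and 14.1% of genes.

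Rpl14 was at 3003, 3084, 2962 and 3258 CPM in dendritic cell-like cells of control replicates 1 to 4 and at 2435, 2448 and 2542 CPM in those of cKO replicates 6, 7 and 8. In monocyte-like cells it was at 1683, 1505 and 1677 CPM in control replicates 1, 2 and 4 and at 1274, 1108 and 1248 CPM in cKO replicates 6, 7 and 8. Every dendritic cell-like value thus exceeded every monocyte-like value, and within each cell type every cKO mouse lay below every control mouse. Rpl14 was called between conditions in all cells of these mice, so its order within the cell types is no separate evidence. The log2 fold change between the cell types was 0.96 (SE 0.11, edgeR adjusted p = 1.89e-11).

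Rpl12 had the largest difference. It was at 306, 376, 345, 363, 266 and 313 CPM in monocyte-like cells of replicates 1, 2, 4, 6, 7 and 8, below the 497 to 1086 CPM of every dendritic cell-like sum (log2 fold change 0.98, SE 0.13, edgeR adjusted p = 5.69e-10). Rps2 (0.76), Rpl5 (0.71), which escorts 5S ribosomal RNA, Rps26 (0.66), Rps27l (0.59), Rpl4 (0.59) and the stalk protein Rplp1 (0.59) were the next largest, each higher in 6 of 6 mice with both cell types. All 8 stayed past the edgeR or DESeq2 threshold in 13 of 13 alternatives. Rps9 alone was lower: it was at 4486, 4212, 4326, 3898, 3582 and 3436 CPM in monocyte-like cells of replicates 1, 2, 4, 6, 7 and 8 and between 2954 and 3405 CPM in dendritic cell-like sums, without overlap (log2 fold change -0.33, SE 0.11, edgeR adjusted p = 0.0152). This call was lost without the low-count filter and without control replicate 2 or 4 or cKO replicate 6, 7 or 8, each left out alone.

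Between macrophage-like and monocyte-like cells the direction was mostly downward. Of the members, 22 were lower and 3 higher in macrophage-like cells, against 10.9% and 11.0% of genes, or 21.9% in both directions. At an unadjusted p under 0.05 the test held 41 members, against 32.1% of genes. The number lower was 14 without the mouse block and 9 to 16 without single mice, the fewest without control replicate 1 (9), control replicate 2 (10) and control replicate 3 (12). The 22 were 11 genes of the large subunit, Rplp0, 8 of the small subunit, Rpl36al and Rps27rt. The median log2 fold change was -0.20 over the members and 0.10 over all genes. DESeq2 moved the median of all genes to 0.25 and that of the members to -0.08, and called 19 lower and 13 higher, against 7.61% and 11.1% of genes, so the number of higher members depends on the scaling.

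Rpl36al, which differs from Rpl36a in few residues, had the largest fall. It was at 805, 1082, 913, 853, 858 and 892 CPM in monocyte-like cells of replicates 1, 2, 4, 6, 7 and 8 and at 562, 530, 587, 557, 548 and 619 CPM in macrophage-like cells of the same mice. All monocyte-like values exceeded all macrophage-like values (log2 fold change -0.68, SE 0.12, edgeR adjusted p = 3.66e-06).

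Rpsa fell by 0.60 on the log2 scale (SE 0.12, edgeR adjusted p = 3.51e-05), from 1184 ± 146 CPM to 786 ± 57.7 CPM (SD, n = 6 mice), without overlap. Rps27 (-0.53) and its retrocopy Rps27rt (-0.54) moved alike, as reads shared between copies would also give. Rpl9 (-0.51), Rpl18 (-0.48), Rps9 (-0.48) and Rps14 (-0.47) completed the named 8, each lower in 6 of 6 mice. Rps9 fell from 3990 ± 422 CPM to 2886 ± 259 CPM and Rps14 from 4138 ± 556 CPM to 2993 ± 200 CPM, both without overlap.

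The 3 members that were higher in macrophage-like cells were Rpl12 (log2 fold change 0.45, edgeR adjusted p = 0.00681), Rps29 (0.32, edgeR adjusted p = 0.0205) and Rplp1 (0.31, edgeR adjusted p = 0.0423). Rpl12 rose from 328 ± 41.2 CPM to 453 ± 46.7 CPM, higher in 6 of 6 mice without overlap. Rplp1 was higher in 6 of 6 mice and Rps29 in 5 of 6. Only 1 member was higher without the mouse block or without control replicate 4, 2 were without control replicate 1 or cKO replicate 7, and 5 and 6 were without control replicates 2 and 3. Rplp0, the stalk protein that anchors Rplp1 and Rplp2, moved the other way, with 3688 ± 668 CPM in monocyte-like and 2739 ± 333 CPM in macrophage-like cells (log2 fold change -0.43, edgeR adjusted p = 0.00215, lower in 6 of 6 mice).

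**Figure D4:**
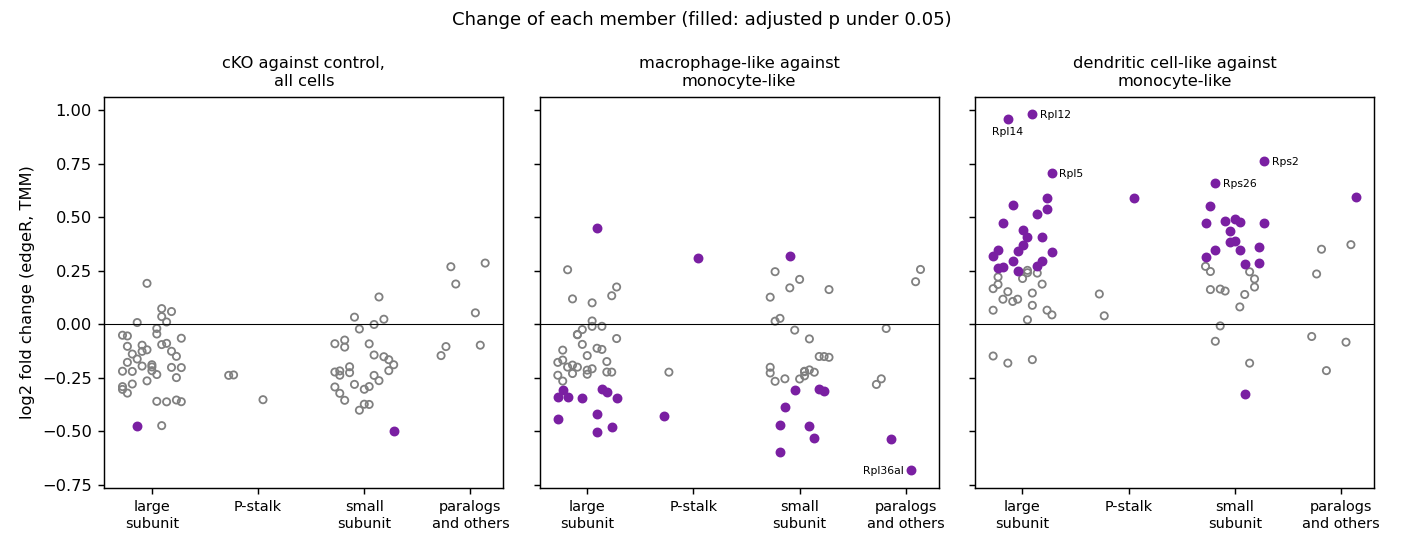
Log2 fold change (edgeR, TMM) of each member in 3 comparisons, by subunit, with filled points for an adjusted p under 0.05. Between conditions 71 members lie below 0 and 2 are filled, in macrophage-like against monocyte-like cells 22 of 25 filled points lie below 0, and in dendritic cell-like against monocyte-like cells 41 of 42 lie above 0 with Rpl12 and Rpl14 at the top.

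Of 34 ribosome biogenesis genes, 20 were higher and 0 lower in dendritic cell-like than in monocyte-like cells, against 16.5% and 15.5% of all genes, with a median log2 fold change of 1.02. Among them were Myc, a transcription factor of growth (2.32), Gar1 (2.14) and Fbl (1.39), which modify ribosomal RNA, Ncl (1.31) and Npm1 (1.14). In macrophage-like against monocyte-like cells 7 were higher, Myc (2.07) and Npm1 (0.51) included, and 1 lower, Eif6, which keeps the subunits apart (-0.58), against 11.0% and 10.9% of all genes.

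Of the 30 elongation factors and TOP partners, 10 were lower and 0 higher in macrophage-like than in monocyte-like cells, where 10.9% and 11.0% of all genes were. They included Eif3h (-0.63) and Eif3e (-0.59) of initiation factor 3, Tpt1 (-0.48), Pabpc1, the poly(A)-binding protein (-0.46), and Vim (-1.63). In dendritic cell-like cells 8 were higher, led by Nap1l1 (1.43), Eef1g (1.11) and Eef1b2 (1.01), and Tpt1 (-0.44) and Vim (-0.45) were lower. Fau, which encodes a ubiquitin-like fusion of a small subunit protein, was lower in both macrophage-like (-0.53) and dendritic cell-like cells (-0.32), and Rack1 was higher in dendritic cell-like cells (0.34). Of 78 mitochondrial ribosomal proteins, 18 were higher and 3 lower in dendritic cell-like cells (16.5% and 15.5% of all genes), and 6 higher and 7 lower in macrophage-like cells, near the 11.0% and 10.9% of all genes.

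Some paralogs can replace their partner in the ribosome, so the share of each paralog in its pair was compared within mice, over 24 comparisons in all. Rpl36al made up 53.3% ± 4.52 of Rpl36al and Rpl36a UMIs in monocyte-like cells and 37.5% ± 2.84 in macrophage-like cells (SD, n = 6 mice, lower in 6 of 6). Rpl36a itself was at 790 ± 109 CPM and 950 ± 105 CPM, higher in 6 of 6 mice but with overlapping values, and did not pass the test (log2 fold change 0.25, edgeR adjusted p = 0.115). The dendritic cell-like share was 44.3% ± 2.86, again lower in 6 of 6 mice.

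Rps27l made up 7.45% ± 1.74 of the Rps27l and Rps27 UMIs in monocyte-like, 12.3% ± 3.67 in macrophage-like and 12.6% ± 4.18 in dendritic cell-like cells, higher in 6 of 6 mice both times. Rps27 is among the 16 members that were low in control replicate 4, and this mouse had the highest share in each of the 3 cell types (9.78%, 18.8% and 19.1%). Rpl22l1 made up 46.2% ± 2.58 of its pair with Rpl22 in monocyte-like and 39.9% ± 3.59 in dendritic cell-like cells (lower in 6 of 6 mice), and Rpl7l1 5.37% ± 1.23 of its pair with Rpl7 in monocyte-like and 7.88% ± 1.90 in macrophage-like cells (higher in 6 of 6 mice). Each of these 6 differences had p = 0.0312 in a two-sided exact sign-flip permutation test, the smallest that 6 mice allow, and an adjusted p of 0.125, so none passed over the 24 comparisons. Between conditions, all adjusted p from exact permutation tests were 0.196 or more.

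**Figure D5:**
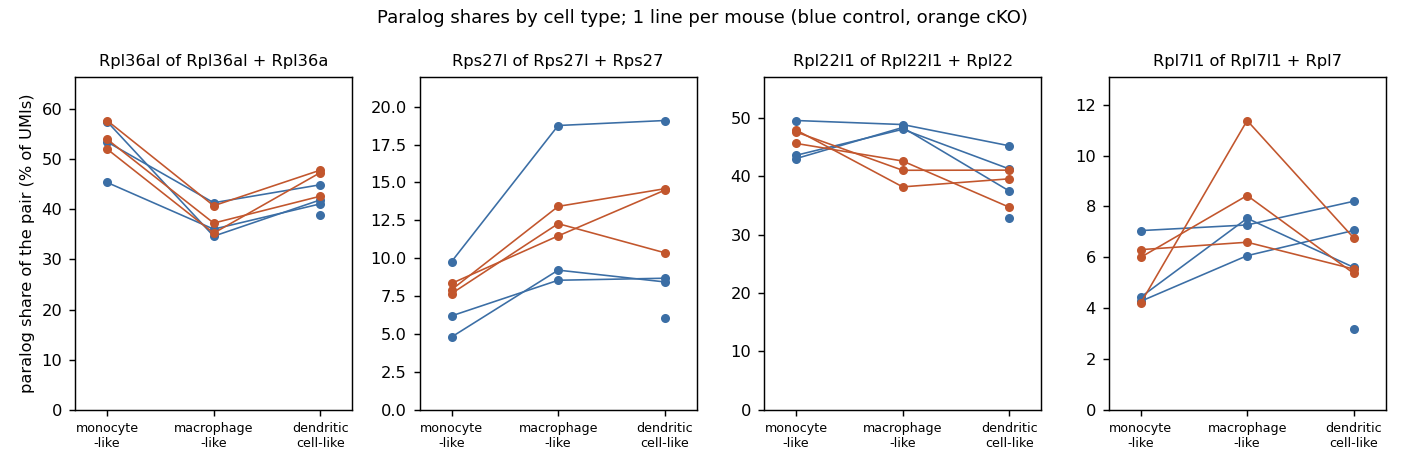
Share of a paralog in the UMIs of its pair (percent) in monocyte-like, macrophage-like and dendritic cell-like cells, with a line per mouse (control in blue, cKO in orange). Rpl36al falls from 53.3% to 37.5% and Rps27l rises from 7.45% to 12.3% on average between monocyte-like and macrophage-like cells, in the same direction in each of 6 mice.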

How the data were processed

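The authors aligned 10x 3′ reads with Cell Ranger and STAR 2.5.3a to mm10 with an added EYFP sequence, and kept a single position for reads that fit several. The deposited matrix holds raw UMI counts (16889 genes, 5947 barcodes, 8 mice), joined with no thinning to equal depth and no normalization. Barcodes are numbered per mouse without their sequence, so barcodes shared between libraries were not counted.

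Cells were kept from 2.8 in log10 UMIs and 2.6 in log10 genes, with at most 5% mitochondrial UMIs and no hemoglobin UMI (3213 cells, 497531 to 3762314 UMIs per mouse). Barcodes over the mitochondrial limit held 9.97% to 13.6% of UMIs in the members. Scrublet (scanpy 1.11.5) marked 73 of the kept cells, which stayed in. They were uneven between mice, with 5, 2, 5 and 3 in control replicates 1 to 4. In cKO replicates 5 to 8 they were 24, 16, 10 and 8, the 24 among the 83 cells of replicate 5. Clusters came from scran 1.30.0 size factors, 8 denoised components and Ward's method, without 1776 rows (members, related lists, Gm rows, Slc3a2 and EYFP). The threshold of 3 leading markers for a name was set after the clusters were seen.

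Shares were compared with two-sided exact permutation tests over mice, or sign flips within mice. Gene tests used edgeR 4.0.16 (TMM, glmQLFit and glmQLFTest, Benjamini-Hochberg over all genes, 0.05) on UMIs summed over each mouse, or over its cells in a cluster where these were at least 20, for genes over 1 CPM in at least 3 sums and with a UMI in at least 20 cells. Cell types were compared with the mouse as a block. The fits were tested on simulated data. Named were the 6 members of highest and of lowest level, the non-core and the P-stalk members, and per test the 8 called members of largest change, or the 3 of smallest p, of which 1 is not reported here. Any other member named was chosen after its values were seen. Members and lists were chosen with earlier results of these data known. Alternatives were DESeq2 1.42.0, other scaling, filters, clusterings and cell limits, and leaving out mice.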

Additional observations from a re-analysis of the deposited data

Results flagged for a closer look

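Within each group of 4 mice, the highest or lowest value was tested by its gap to the nearest other mouse relative to the whole range (Dixon's critical value 0.829). This was done for 76 sets of values, where chance marks about 1 in 20, and 2 passed. The rows named -ps took 1.88% of UMIs in control replicate 3, against 0.981% to 1.07% in the other control mice (gap 0.903 of the range). In cKO mice these rows took 1.52%, 1.16%, 0.870% and 1.10% in replicates 5 to 8, with the highest value in the mouse of 83 cells. The retrocopy Rpl6l was at 1770 CPM in control replicate 3, against 1418 to 1475 CPM in the other control mice (gap 0.840 of the range). Control replicate 3 had 85 cells, and the part of depth in these values was not tested.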

How the results depend on the processing

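No paired analysis was possible because the labels name no litter or cage by which control mice (1 to 4) could be matched to cKO mice (5 to 8). The whole-cell difference in share stayed negative in all alternatives. It was -1.48 points (exact permutation p = 0.171) with monocyte-like, macrophage-like and unnamed clusters only and -1.15 with equal weight per cluster. When a mouse was left out it lay between -3.27 and -1.78 points. The -3.27 points came without control replicate 4. There the threshold was passed because the only overlapping control mouse was left out, which is no test. Within clusters, the Ccl24 Mmp12 difference turned to 0.543 points with a mitochondrial limit of 3% and to 0.404 without the mice of 85 and 83 cells (-0.913 to 0.404 without single mice), the macrophage-like one to -0.368 from 10 cells per sum (-0.0172 to 1.11), and the low-UMI macrophage-like one ranged from -0.735 to 0.539. Against the other cells, the Ccr2 Ms4a8a cluster turned to 0.408 with the mean per cell and to 0.258 with 7 clusters (-0.357 to 0.243 without single mice), and the Ccl24 Mmp12 cluster to -0.394 with 12 clusters. The cause was not tested.

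Between conditions in all cells, members called lower were 6 with DESeq2, 1 with TMM from other genes, 0 without the low-count filter, 0 without Scrublet calls (alternatives with both small mice left out and TMM-scaled CPM were chosen after seeing the data), 0 without the mice of 85 and 83 cells, and 0 to 1 without single mice, where all genes called ranged from 155 to 738. Within clusters DESeq2 called 19 lower in monocyte-like, 11 in the Ccr2 Ms4a8a cluster, 4 in dendritic cell-like, 1 in macrophage-like cells, and 1 higher in the Ccl24 Mmp12 cluster. Without control replicate 4 edgeR called 1 higher in that cluster and 1 lower in dendritic cell-like cells (0 to 1 in each without single mice). In macrophage-like against monocyte-like cells, the members higher were 13 with DESeq2, 1 without the mouse block, 6 without the mice of 85 and 83 cells and 1 to 6 without single mice (1 without control replicate 4, 6 without control replicate 3, 5 without control replicate 2), and those lower 14 without the block, 12 without both mice and 9 to 16 without single mice (9 without control replicate 1). In dendritic cell-like cells, members lower were 3 with DESeq2, 0 without the low-count filter and 0 to 1 without single mice, and 36 were higher without the block. With TMM-scaled CPM, 21 in place of 46 members had every cKO mouse below every control mouse.

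Signs turned for 5 members, in comparisons where they had not passed the test. Rps27rt between conditions ranged from -0.0643 (without control replicate 4) to 0.58 without single mice, and was -0.0407 without cKO replicate 5, and Rpl7l1 ranged from -0.16 to 0.00522. Between dendritic cell-like and monocyte-like cells Rpl36al ranged from -0.13 to 0.0113 and Rpl22l1 from -0.0947 to 0.0512 (0.00748 without the low-count filter, 0.00554 without the mice of 85 and 83 cells). In macrophage-like cells Rps19bp1 was 0.141 with DESeq2, 0.0431 without Scrublet calls, 0.0777 without both mice and -0.0352 to 0.168 without single mice. Free RNA in droplets and reads split between copies limit all levels. The clusters compared between conditions held sums for 5 to 7 mice. The Saa3 Il1a cluster held sums for 3 mice, all cKO, and the stromal-like cells for control replicate 1 alone.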
